A study of Mus musculus with 4 samples.

Results

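Greb1l and its paralog Greb1 were followed in 4 single mouse embryos, as 2 genes of the 39179 counted in each embryo. The genes were given by name and their symbols were matched to the Ensembl gene identifiers of the count tables. They were selected on their levels in these same embryos, in CPM (counts scaled to a common library size), so their levels and their differences between the groups are given as a description, without a test. RNA was sequenced from single chimeric embryos staged at E7.75, made by injecting embryonic stem cells (ESCs) into host embryos of an ARC x RLZRFP cross; the ESC contribution was checked, and its level is not given. In 2 embryos the ESCs carried doxycycline-inducible FLAG-Lhx1, a tagged form of the LIM homeodomain transcription factor LHX1, which is needed for head formation. In the other 2 they carried FLAG-Lhx1-mt, an altered form also labelled with the Greek letter delta. All foster mothers drank 2 mg/mL doxycycline with 5% sucrose for 24 hours before collection, so the altered form was induced in the same way, and no uninduced embryo was analysed here. Host cells remain in a chimera, and which part of LHX1 the altered form lacks and how many ESC clones were used remain not given in the sources used here. Where a group has a pair of values, replicate 1 stands before replicate 2.

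GREB1, whose name stands for growth regulation by estrogen in breast cancer, is a chromatin-bound partner of the estrogen receptor in breast cancer cells, where its gene is one of the best known estrogen targets. GREB1L, a protein of similar build, is linked to genes controlled by retinoic acid, and its loss causes kidney agenesis in humans and mice. Variants of human GREB1L also cause malformations of the inner ear and of the female genital tract. LHX1 is itself required for kidney formation as well as for the head.

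RefSeq gives Greb1, a gene on chromosome 12, an upstream and a downstream start, and a count per gene adds up transcripts of both. Windows of 300 bases around both starts (250 before and 50 after, GRCm38.p6, minus strand) were matched for Greb1, and they are shown because the gene is known for its control by a nuclear receptor. Capitals mark GGTCA, the core that estrogen and retinoic acid receptors recognise, or its reverse complement TGACC.
Greb1 upstream start, chr12:16800837-16801136: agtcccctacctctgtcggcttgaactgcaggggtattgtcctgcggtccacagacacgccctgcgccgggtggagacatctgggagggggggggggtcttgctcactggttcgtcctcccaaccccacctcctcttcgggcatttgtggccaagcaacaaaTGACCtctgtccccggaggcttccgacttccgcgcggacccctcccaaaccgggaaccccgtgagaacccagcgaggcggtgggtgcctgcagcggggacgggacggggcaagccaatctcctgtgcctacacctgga
Greb1 downstream start, chr12:16757190-16757489: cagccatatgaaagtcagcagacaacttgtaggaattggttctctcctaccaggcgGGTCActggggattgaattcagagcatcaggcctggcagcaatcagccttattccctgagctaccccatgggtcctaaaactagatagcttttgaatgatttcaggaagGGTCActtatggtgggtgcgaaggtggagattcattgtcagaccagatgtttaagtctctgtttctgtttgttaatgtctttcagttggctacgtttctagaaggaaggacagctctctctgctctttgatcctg
The upstream window had a GC content of 65.3% and held 1 GGTCA match, on the reverse strand, and the downstream window had a GC content of 46.3% and held 2, both on the forward strand. Such a match, on either strand, was present in 40.5% of the 32851 promoter windows searched. The longer motifs searched on both strands were the estrogen response element core (GGTCA, 3 free bases and TGACC), found in 0.07% of windows, the direct repeat of retinoic acid receptors (AGGTCA, 5 free bases and AGGTCA), found in 0.00913%, and the homeodomain motif TAATTA, found in 5.29%. Both of the first-named motifs contain GGTCA, and none of the 3 was in either Greb1 window. Only exact matches within these 300 bases were sought, so elements further from a start or of variant sequence were not looked for. No window was analysed here for Greb1l.

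Count totals ran from 21267116 to 30434442 per embryo, so 3 counts correspond to 0.0959 to 0.153 CPM, a floor that covers counting error only. Log2 CPM correlated across genes at 0.982 between the FLAG-Lhx1 embryos and at 0.978 between the FLAG-Lhx1-mt embryos, against 0.965 to 0.970 between the groups. The predicted gene Gm10800 took 13.8% of the counts of FLAG-Lhx1 replicate 2 and 5.72% to 8.02% of those of the other embryos. Lhx1 had 129 and 114 CPM in the FLAG-Lhx1 embryos against 126 and 98.5 in FLAG-Lhx1-mt. Counts do not separate transgene from endogenous transcripts, so this does not check the labels. In the fit over all genes, edgeR called 976 of 15822 tested genes at an adjusted p under 0.05 (6.17%), 415 higher (2.62%) and 561 lower (3.55%) in FLAG-Lhx1. With upper-quartile normalization 54.4% of the calls were higher, against 42.5% with TMM, and leaving out 1 embryo gave as few as 521 calls (FLAG-Lhx1 replicate 2 absent) and as many as 1648 (FLAG-Lhx1-mt replicate 1 absent).

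Greb1l (ENSMUSG00000042942) lies on chromosome 18 at 10325177 to 10562940 of GRCm38, on the plus strand, and its main annotated transcript has 33 exons and a coding length of 5739 bases. Greb1 (ENSMUSG00000036523) lies on chromosome 12 at 16670615 to 16800886, on the minus strand, and its main annotated transcript has 35 exons and a coding length of 5862 bases. In a global alignment of these coding sequences 66.0% of 5516 paired bases were identical. The longest run of bases shared by any transcripts of the genes was 26 bases, and no run of 50 or 100 bases was shared, against reads of 100 bases. No exon of another annotated gene overlaps an exon of Greb1l. An antisense gene model, Gm48140, covers 7.68% of the exon bases of Greb1, and whether the counting used strand was not given in the sources used here.

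Greb1l was about 4 times as abundant in FLAG-Lhx1 embryos as in FLAG-Lhx1-mt embryos, while Greb1 was at nearly the same level in both. Greb1l had 120 and 135 CPM in the FLAG-Lhx1 embryos against 36.7 and 24.5 in FLAG-Lhx1-mt. Both FLAG-Lhx1 embryos stood far above both FLAG-Lhx1-mt embryos, and the gap between the groups was much wider than the gap within either. Within a group the higher embryo exceeded the lower by 1.13-fold among the FLAG-Lhx1 and by 1.5-fold among the FLAG-Lhx1-mt embryos. Group means were 128 ± 10.8 CPM for FLAG-Lhx1 against 30.6 ± 8.63 for FLAG-Lhx1-mt (SD, n = 2 each), 4.18-fold or 2.06 ± 0.19 on the log2 scale (SE of the edgeR fit). These levels rest on 3142 and 2658 counts for FLAG-Lhx1 against 854 and 766 for FLAG-Lhx1-mt. The lowest of them, 24.5 CPM, has a counting interval of 22.8 to 26.3 CPM (exact Poisson, 95%), narrow beside the spread between the FLAG-Lhx1-mt embryos. It takes each read as a separate molecule, so it is too narrow if copies from PCR pre-amplification were counted. In bulk RNA of a whole embryo, more cells that express a gene and more of its RNA per cell cannot be told apart.

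Greb1 had 56.0 and 53.3 CPM in the FLAG-Lhx1 embryos against 51.2 and 46.8 in FLAG-Lhx1-mt. The embryos did not overlap between the groups, but the nearest of them, FLAG-Lhx1 replicate 2 and FLAG-Lhx1-mt replicate 1, were closer to each other than the replicates of either group. Group means were 54.6 ± 1.90 CPM for FLAG-Lhx1 against 49.0 ± 3.12 for FLAG-Lhx1-mt (SD, n = 2 each). The log2 fold was 0.16 ± 0.15 (SE), close to the median of all tested genes, 0.01. Both FLAG-Lhx1 embryos lay above both FLAG-Lhx1-mt embryos for Greb1l and for Greb1, an order that 26.4% of all tested genes had. Greb1l was called in the fit over all genes and Greb1 was not, 1 of 2 against the 6.17% above, and since the genes were proposed on this contrast nothing is read from that count. By log2 fold Greb1l ranked 142 of 15822 tested genes and Greb1 ranked 5911.

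**Figure D1:**
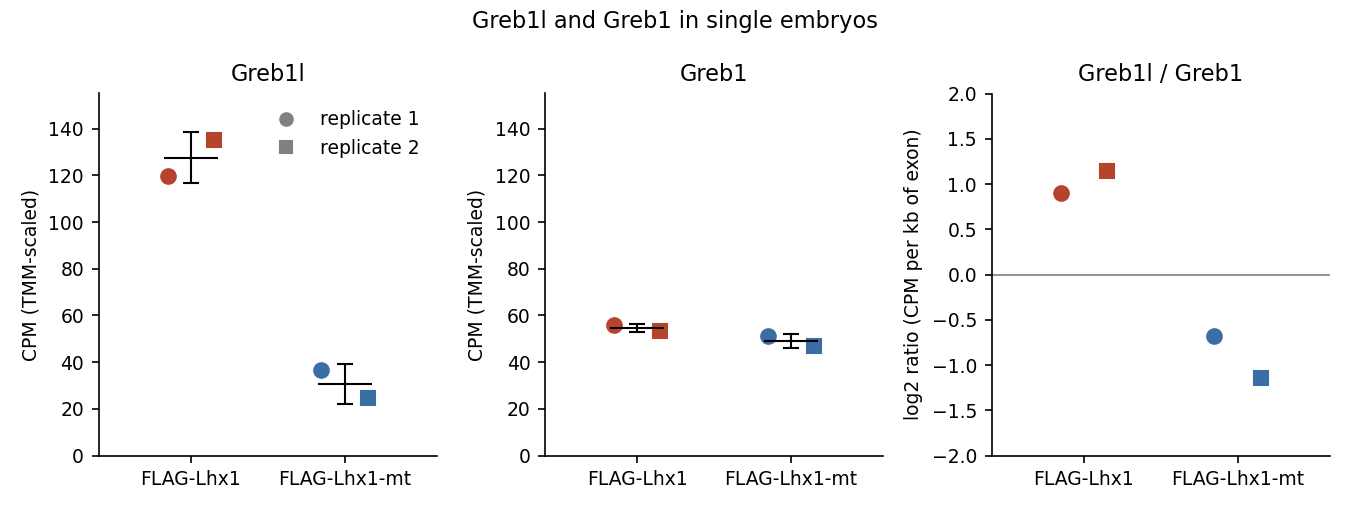
Level of Greb1l and Greb1 (CPM scaled by TMM; points are embryos, bars the mean ± SD of 2 embryos) and the log2 ratio of Greb1l to Greb1 per kilobase of exon in each embryo, FLAG-Lhx1 left of FLAG-Lhx1-mt. Greb1l is at 120 and 135 CPM in the FLAG-Lhx1 embryos against 36.7 and 24.5 in FLAG-Lhx1-mt, Greb1 stays between 46.8 and 56.0 CPM, and the ratio is above 0 in FLAG-Lhx1 and below 0 in FLAG-Lhx1-mt.

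Which of the paralogs was the more abundant differed between the groups. To compare them, CPM were divided by the length of all exons of the gene, 11022 bases for Greb1l and 9580 bases for Greb1. Greb1l was at 11.6 ± 0.983 CPM per kilobase for FLAG-Lhx1 against 2.77 ± 0.783 for FLAG-Lhx1-mt, and Greb1 at 5.70 ± 0.198 for FLAG-Lhx1 against 5.11 ± 0.326 for FLAG-Lhx1-mt (SD, n = 2 each). From high to low the order of the levels was Greb1l in FLAG-Lhx1, Greb1 in FLAG-Lhx1, Greb1 in FLAG-Lhx1-mt and Greb1l in FLAG-Lhx1-mt, and the neighbours in the middle, both of Greb1, were the closest. Per length Greb1l was 1.86 and 2.21 times Greb1 in FLAG-Lhx1 replicates 1 and 2, and 0.623 and 0.455 times Greb1 in FLAG-Lhx1-mt replicates 1 and 2. Within each embryo this ratio does not depend on how libraries are scaled. Its log2 value averaged 1.02 ± 0.17 for FLAG-Lhx1 against -0.91 ± 0.32 for FLAG-Lhx1-mt (SD, n = 2 each), a difference of 1.93. The summed level of the paralogs was 16.7 and 17.8 CPM per kilobase in FLAG-Lhx1 replicates 1 and 2 against 8.67 and 7.10 in FLAG-Lhx1-mt replicates 1 and 2. Among 14098 tested protein-coding genes Greb1l stood at percentile 78.6 of the level per kilobase for FLAG-Lhx1 against 54.3 for FLAG-Lhx1-mt, and Greb1 at 67.7 for FLAG-Lhx1 against 65.4 for FLAG-Lhx1-mt.

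Next, the genes beside each paralog on its chromosome were examined, since position played no part in the choice of the genes. Of the 10 protein-coding genes nearest to Greb1l, 9 were tested and 2 rose, beside 2.62% of all tested genes, and none fell. Colec12, a scavenger receptor gene 442.5 kb to the left, had 53.9 and 54.8 CPM in the FLAG-Lhx1 embryos against 17.6 and 17.9 in FLAG-Lhx1-mt. Its embryos agreed closely within each group and did not overlap between them (log2 fold 1.61 ± 0.17, SE, edgeR adjusted p = 4.86e-05). Rock1, a kinase gene and the nearest on the left (143.1 kb), had 161 and 149 CPM in the FLAG-Lhx1 embryos against 102 and 97.0 in FLAG-Lhx1-mt (0.64 ± 0.14 on the log2 scale, SE, edgeR adjusted p = 0.0147). With FLAG-Lhx1 replicate 1 left out Rock1 was no longer called (log2 fold 0.55), nor with offsets for GC content and transcript length (0.35). The genes between Rock1 and Colec12, Usp14 (log2 fold 0.17) and Thoc1 (0.16), were not called, and they share 26% and 24.3% of their exon bases with each other on opposite strands.

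On the right of Greb1l no gene was called. Esco1, which encodes a cohesin acetyltransferase and whose nearer, 3′ end lies 3.6 kb past Greb1l, had 38.2 and 30.1 CPM in the FLAG-Lhx1 embryos against 31.2 and 21.1 in FLAG-Lhx1-mt, and its groups overlapped (log2 fold 0.39 ± 0.21, SE, edgeR adjusted p = 0.296). Beyond it the log2 folds were -0.13 for Snrpd1, a splicing factor gene, -0.29 for Abhd3, 0.47 for Mib1, whose product activates Notch ligands, and 0.26 for Gata6, an endoderm and heart regulator. The adjusted p of Mib1 was 0.0641 by edgeR. It passed with upper-quartile normalization and with the DESeq2 test, but with no other alternative that kept all 4 embryos. Its log2 fold was 0.20 with the GC and length offsets, and 0.38 to 0.55 with 1 embryo left out. The same offsets gave 0.14 for Esco1, -0.10 for Usp14 and -0.04 for Thoc1, while Gata6 stood at 0.36. The number called among the neighbours of Greb1l was 1 without FLAG-Lhx1 replicate 1 and with the GC and length offsets, and 4 without FLAG-Lhx1-mt replicate 1. Cetn1, the last of the 10, had 9 counts in all and was not tested.

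The neighbours of Greb1 include Rock2, the paralog of Rock1, 94.0 kb to the right. Rock2 had 56.8 and 56.8 CPM in the FLAG-Lhx1 embryos against 55.5 and 54.6 in FLAG-Lhx1-mt (log2 fold 0.05 ± 0.15, SE, edgeR adjusted p = 0.900). Of 9 tested neighbours of Greb1 none was called by edgeR, none had an unadjusted p under 0.05 other than E2f6, and neither DESeq2 nor limma-voom called any (DESeq2 gave Kcnf1 no adjusted p). E2f6, which encodes a transcriptional repressor, was at 84.7 and 80.4 CPM in the FLAG-Lhx1 embryos against 68.5 and 54.1 in FLAG-Lhx1-mt (log2 fold 0.43 ± 0.16, SE, edgeR adjusted p = 0.121), and it was called without FLAG-Lhx1-mt replicate 1 (0.60). The others were Lpin1 (0.06), Trib2 (-0.18), Fam84a (-0.68), Nbas (0.08), Pqlc3 (-0.22), 2410004P03Rik (-0.17) and Kcnf1 (0.12). Fam84a was called lower without FLAG-Lhx1-mt replicate 1 (-1.23, edgeR adjusted p = 0.0261), while its log2 fold was 0.25 without replicate 2 of that group. Ntsr2, the nearest on the left, had 18 counts in all and was not tested. The median log2 fold was 0.26 over the tested neighbours of Greb1l and 0.05 over those of Greb1. These sets reach unlike distances, so the medians do not compare like regions. The tested neighbours of Greb1l lay within 489.1 kb, while Trib2, Fam84a and Nbas lay 853.7, 2518.6 and 3086.8 kb from Greb1.

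**Figure D2:**
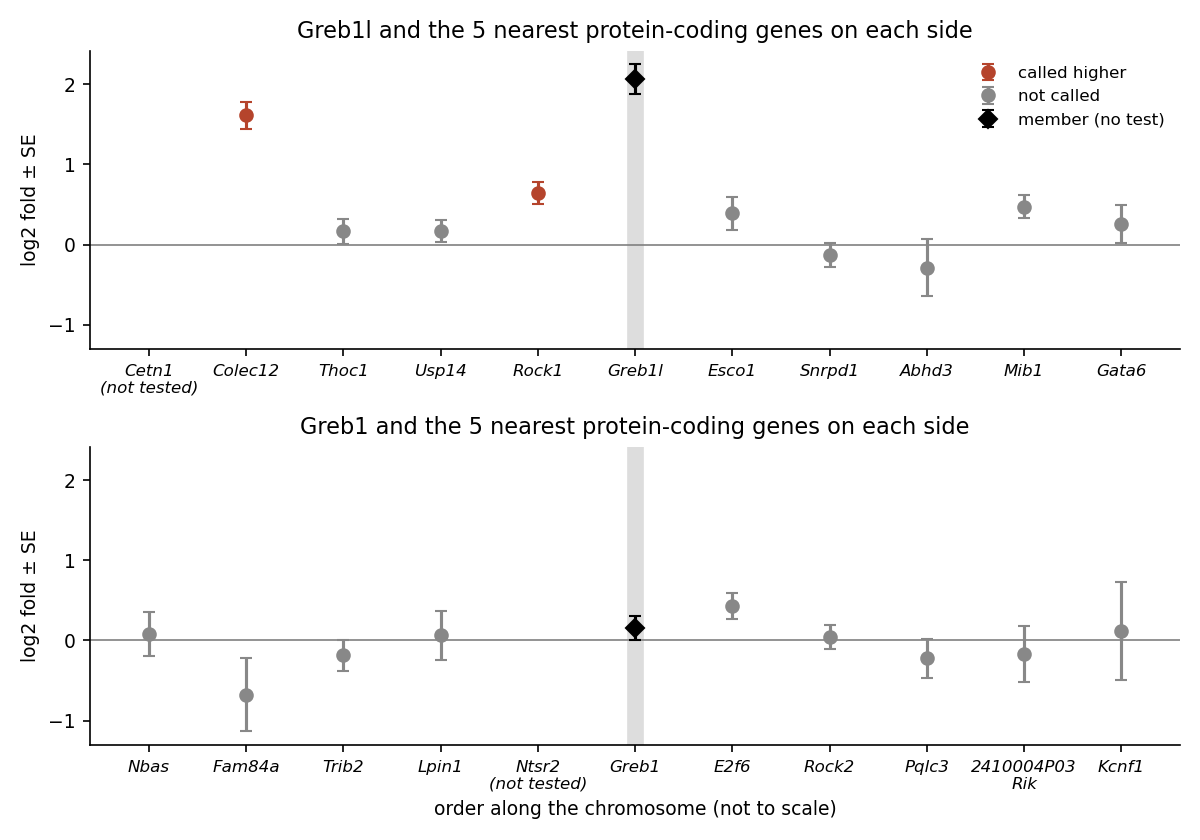
Log2 fold of FLAG-Lhx1 over FLAG-Lhx1-mt (± SE of the edgeR fit) for Greb1l (top) and Greb1 (bottom) and the 5 nearest protein-coding genes on each side, in chromosome order. Greb1l stands at 2.06, Colec12 at 1.61 and Rock1 at 0.64, while Greb1 and its tested neighbours lie between -0.68 and 0.43.

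The genes most like each paralog over the 4 embryos were found by the Euclidean distance between log2 CPM profiles, each centred on its own mean, among the 8600 protein-coding genes, predicted gene models aside, whose mean reached 5 CPM. Because they were picked for likeness, their differences between the groups carry no test. Nearest to Greb1l was Ptprz1, which encodes a receptor tyrosine phosphatase that binds pleiotrophin (distance 0.130), at 8.40 and 9.36 CPM in the FLAG-Lhx1 embryos against 2.23 and 1.598 in FLAG-Lhx1-mt. It was followed by Rnf213, a ubiquitin ligase gene (distance 0.194), with 25.3 and 29.5 CPM in the FLAG-Lhx1 embryos against 9.19 and 5.62 in FLAG-Lhx1-mt. Sgpp1, a sphingosine-1-phosphate phosphatase gene, came next (0.213). In these 3 genes, as in Greb1l, FLAG-Lhx1 replicate 2 was the highest embryo and FLAG-Lhx1-mt replicate 2 the lowest. The others were Fgfr2, an FGF receptor gene (distance 0.335; 47.5 and 40.3 CPM in the FLAG-Lhx1 embryos against 10.9 and 8.12 in FLAG-Lhx1-mt), Prkar2b, which encodes a regulatory subunit of protein kinase A (0.340), and Ror1, a WNT receptor gene (0.367). In these 3 FLAG-Lhx1 replicate 1 was the highest embryo. Greb1 lay at a distance of 1.96 from Greb1l.

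Nearest to Greb1 were genes that hardly differed between embryos. They were Tax1bp1, an autophagy receptor gene (distance 0.0252), Erc1 (0.0261), Pmpcb, a subunit of the mitochondrial processing peptidase (0.0267), Capsl (0.0308), the translation initiation factor gene Eif1a (0.0308) and Nemf, a gene of ribosome quality control (0.0330). Tax1bp1 had 144 and 135 CPM in the FLAG-Lhx1 embryos against 133 and 121 in FLAG-Lhx1-mt, which is the same flat order as Greb1. Log2 folds of these 6 genes lay between 0.14 and 0.18.

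**Figure D3:**
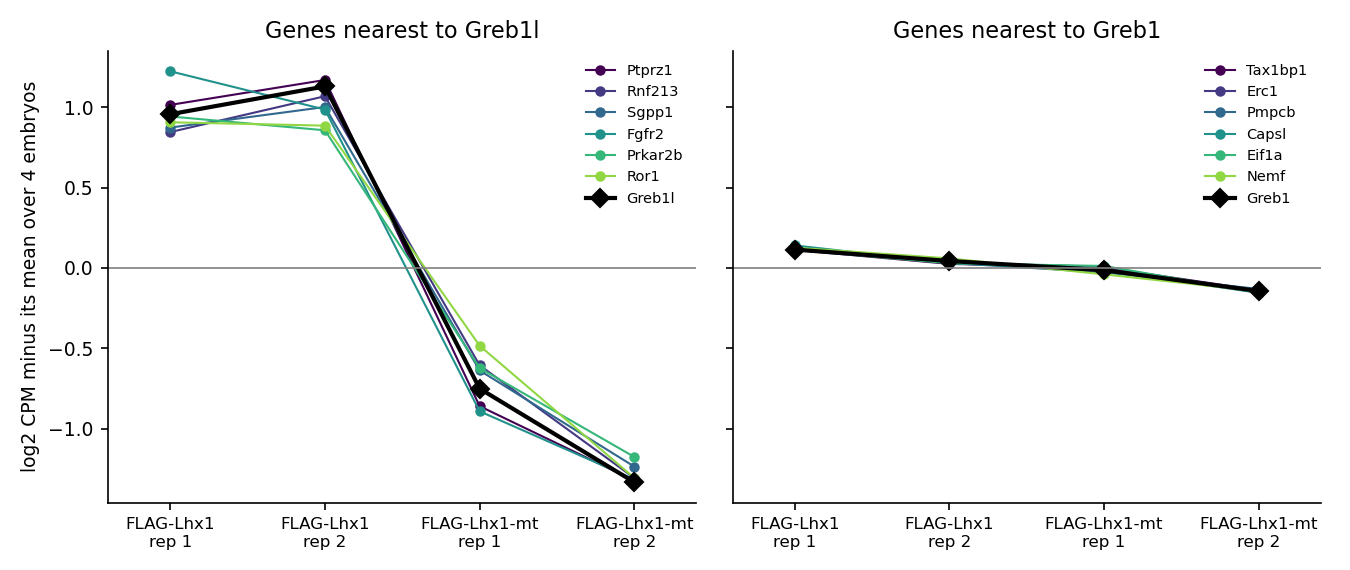
Log2 CPM of each gene minus its own mean over the 4 embryos, for Greb1l (left) and Greb1 (right, black) and the 6 genes nearest to each; a line joins the values of 1 gene and carries no order in time. Greb1l runs from 1.13 in FLAG-Lhx1 replicate 2 to -1.33 in FLAG-Lhx1-mt replicate 2, and Greb1 stays between -0.14 and 0.11.

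Genes of retinoic acid synthesis, breakdown and response were set beside Greb1l. Of 22 tested members 5 rose and 1 fell, against 2.62% and 3.55% of all tested genes, and the median log2 fold was 0.60, against 0.01 over all tested genes. Aldh1a2, which makes retinoic acid in the trunk of the embryo, had 28.9 and 49.9 CPM in the FLAG-Lhx1 embryos against 1.20 and 0.415 in FLAG-Lhx1-mt (log2 fold 5.67 ± 0.38, SE, edgeR adjusted p = 8.57e-07). Its 4 embryos had the same order as those of Greb1l. Crabp2, which carries retinoic acid to its receptors, had 116 and 206 CPM in the FLAG-Lhx1 embryos against 42.8 and 29.0 in FLAG-Lhx1-mt (log2 fold 2.17 ± 0.24, SE, edgeR adjusted p = 8.57e-05), again in that order. Cyp26a1, which breaks retinoic acid down, fell, with 54.0 and 43.1 CPM in the FLAG-Lhx1 embryos against 112 and 164 in FLAG-Lhx1-mt (log2 fold -1.51 ± 0.19, SE, edgeR adjusted p = 0.000283), and its embryos had the reverse order. How many of all tested genes share the order of Greb1l was not counted, so nothing is read from it. Rdh10, Rxrg and Stra6 of this list, not called, had FLAG-Lhx1 replicate 1 as the highest embryo instead.

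Among the receptors of the list, Rarb rose, with 5.15 and 6.16 CPM in the FLAG-Lhx1 embryos against 1.42 and 0.959 in FLAG-Lhx1-mt (log2 fold 2.26 ± 0.37, SE, edgeR adjusted p = 0.00261). Exons of other genes on the opposite strand cover 38.4% of its exon bases, so its value is uncertain. Rara was low and not called, at 1.94 ± 0.207 CPM for FLAG-Lhx1 against 1.75 ± 0.232 for FLAG-Lhx1-mt, and so was Rarg, at 0.770 ± 0.0629 CPM for FLAG-Lhx1 against 1.37 ± 0.439 for FLAG-Lhx1-mt (SD, n = 2 each). The number of members called higher was 8 when FLAG-Lhx1 replicate 1 was left out, 9 when FLAG-Lhx1-mt replicate 1 was.

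The receptors that bind estrogen were near the floor of detection. Esr1, the receptor for which GREB1 is a cofactor in breast cancer cells, had 0.573 and 0.967 CPM in the FLAG-Lhx1 embryos against 0.430 and 0.863 in FLAG-Lhx1-mt, from 10 to 27 counts per embryo, and was not called (edgeR adjusted p = 0.891). Esr2 had 7 to 15 counts per embryo and was not tested. Of 25 tested genes for estrogen receptors, coregulators and known targets 1 rose and 4 fell, beside 2.62% and 3.55% of all tested genes, with a median log2 fold of 0.07. Esrrg, an orphan receptor gene, rose, with 2.86 and 1.63 CPM in the FLAG-Lhx1 embryos against 0.344 and 0.320 in FLAG-Lhx1-mt (log2 fold 2.75 ± 0.57, SE, edgeR adjusted p = 0.0109). Leaving out FLAG-Lhx1 replicate 1 ended that call. Cxcl12 fell, with 13.6 and 11.7 CPM in the FLAG-Lhx1 embryos against 30.8 and 29.7 in FLAG-Lhx1-mt (-1.25 ± 0.19, edgeR adjusted p = 0.0016), and so did Myb (-1.68 ± 0.32, edgeR adjusted p = 0.00704). When FLAG-Lhx1 replicate 2 was left out 2 fell, and 2 also when replicate 1 of FLAG-Lhx1-mt was. GC and length offsets, or upper-quartile scaling, likewise left 2. Ogt, whose product adds O-linked sugar to proteins, was not called (log2 fold 0.30).

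Genes of kidney and inner ear formation, the organs affected when GREB1L is lost, included several that were close to 0. Pax2 had 17 counts over both FLAG-Lhx1 embryos against 4 for FLAG-Lhx1-mt, and Gdnf had 8 for FLAG-Lhx1 against 9 for FLAG-Lhx1-mt. Of 24 tested members 4 rose and 1 fell, beside 2.62% and 3.55% of all tested genes, with a median log2 fold of 0.49. Foxc1, a forkhead gene also active in paraxial mesoderm, had 21.9 and 21.4 CPM in the FLAG-Lhx1 embryos against 8.63 and 3.83 in FLAG-Lhx1-mt (log2 fold 1.81 ± 0.30, SE, edgeR adjusted p = 0.00263). Eya1, which acts upstream of kidney outgrowth, had 10.0 and 8.55 CPM in the FLAG-Lhx1 embryos against 4.04 and 2.49 in FLAG-Lhx1-mt (1.52 ± 0.30, edgeR adjusted p = 0.00898). Frem2, a matrix gene of kidney and skin, rose by 0.96 ± 0.19 on the log2 scale (SE, edgeR adjusted p = 0.00879), but was not called when FLAG-Lhx1 replicate 2 was left out. Sall1 rose by 0.73 ± 0.16 (SE, edgeR adjusted p = 0.0159), but was not called when FLAG-Lhx1 replicate 1 was left out. Etv5 fell (-1.20 ± 0.20, edgeR adjusted p = 0.0029). The counts were 7 higher and 2 lower without FLAG-Lhx1-mt replicate 1.

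Markers of cell types also differed between the groups, and their part in the difference of Greb1l was not tested. Of 18 tested genes of presomitic and paraxial mesoderm 9 rose, beside 2.62% of all tested genes, and none fell (median log2 fold 1.34, or 0.78 without FLAG-Lhx1-mt replicate 2, against 2.02 without replicate 1 of that group). Among them were Foxc2, with 16.9 and 16.4 CPM in the FLAG-Lhx1 embryos against 6.53 and 3.39 in FLAG-Lhx1-mt, and Pax3, with 1.68 and 3.05 CPM in the FLAG-Lhx1 embryos against 0.301 and 0.128 in FLAG-Lhx1-mt. The summed level of the 18 genes was 312 and 355 CPM in the FLAG-Lhx1 embryos against 179 and 91.0 in FLAG-Lhx1-mt. Pcdh19 and Rspo3 were the largest terms of that sum. Its order of the embryos was that by Greb1l, but Foxc1, Foxc2, Dll1, Dll3 and Tcf15 had FLAG-Lhx1 replicate 1 as the highest embryo. How many of all tested genes share the order of Greb1l was not counted, so nothing is read from it. Without FLAG-Lhx1-mt replicate 2, 1 member of this list was called lower.

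Of 13 tested genes of the neural plate 6 rose, again beside 2.62%, and none fell (median 1.38, or 0.70 when FLAG-Lhx1 replicate 1 was left out, 0.88 when FLAG-Lhx1-mt replicate 1 was), and the list summed to 411 and 361 CPM in the FLAG-Lhx1 embryos against 182 and 215 in FLAG-Lhx1-mt. Here the order of the embryos within each group was the reverse of that by Greb1l, and nothing is read from that order either. Fezf1, Hesx1 and Six3 had the smallest p among those that rose, and Hesx1, for instance, had 135 and 120.5 CPM in the FLAG-Lhx1 embryos against 13.2 and 23.2 in FLAG-Lhx1-mt. Of 18 genes of the caudal epiblast and of WNT targets 2 rose, Nkx1-2 and Sp8, and 2 fell, T and Cyp26a1, beside 2.62% and 3.55% (median 0.08, but -0.34 when FLAG-Lhx1 replicate 2 was left out). Those counts were 1 higher without FLAG-Lhx1-mt replicate 2, 1 lower without FLAG-Lhx1 replicate 2 and 4 lower without FLAG-Lhx1-mt replicate 1.

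Genes of the epiblast were lower, 8 of 13 tested members with none higher, beside 3.55% of all tested genes called lower (median -1.5, or -1.0 without FLAG-Lhx1-mt replicate 2), and summed to 996 and 846 CPM in the FLAG-Lhx1 embryos against 1510 and 1870 in FLAG-Lhx1-mt. The smallest p were those of Slc7a3, a transporter gene, Tdgf1, a NODAL co-receptor gene, and Utf1. Genes of the visceral endoderm, an extraembryonic layer, were lower in 6 of 12, beside the same 3.55% (median -0.61), and summed to 1880 and 2130 CPM in the FLAG-Lhx1 embryos against 3750 and 3190 in FLAG-Lhx1-mt. Apoa1, Apoa4 and Cubn had the smallest p, and other genes cover 69.8% of the exon bases of Apoa4. Of the tested markers of extraembryonic ectoderm and trophoblast (6), primitive blood and endothelium (7), and maternal decidua and blood (6), none was called by edgeR, and 2 had an unadjusted p under 0.05. Among the blood and endothelium markers the smallest p was that of Pecam1 (edgeR adjusted p = 0.184). Among the maternal markers it was that of Wnt4, which was higher in FLAG-Lhx1 (log2 fold 1.13, edgeR adjusted p = 0.306). These lists summed to 9.20 to 12.1 CPM, 34.6 to 42.1 CPM and 6.03 to 11.3 CPM over all 4 embryos. The maternal sum was 6.03 and 8.95 CPM in the FLAG-Lhx1 embryos and higher, 9.62 and 11.3, in FLAG-Lhx1-mt, and the groups overlapped for the other lists. With FLAG-Lhx1-mt replicate 1 left out, 1 extraembryonic ectoderm and trophoblast marker was called higher, 1 blood and endothelium marker lower and 3 maternal markers lower. With FLAG-Lhx1-mt replicate 2 left out, 2 blood and endothelium markers were called higher. Among maternal markers too low to test, FLAG-Lhx1-mt replicate 2 stood apart, with Hba-a1, a hemoglobin gene, at 0.153 and 0.305 CPM in the FLAG-Lhx1 embryos against 0.0430 and 2.43 in FLAG-Lhx1-mt. Prl8a2, a decidual prolactin gene, was at 0.0763 and 0.153 CPM in the FLAG-Lhx1 embryos against 0.129 and 1.66 in FLAG-Lhx1-mt. Of the tested maternal markers, Dcn, Pgr, Igfbp1, Cd68 and Wnt4 were instead lower in replicate 2 of FLAG-Lhx1-mt than in replicate 1. Ptprc was nearly level between them (0.515 and 0.543 CPM). The log2 fold of Greb1l was 1.78 without FLAG-Lhx1-mt replicate 2 and 2.37 without replicate 1 of that group. Any part of maternal RNA in it was not tested. No marker of these lists was at 0 in all 4 embryos. Mitochondrially encoded genes summed to 22800 and 29100 CPM in the FLAG-Lhx1 embryos against 25000 and 24000 in FLAG-Lhx1-mt, and edgeR called none of the 11 tested, mt-Atp6 having the smallest adjusted p (0.391), and 1 without FLAG-Lhx1-mt replicate 2.

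**Figure D4:**
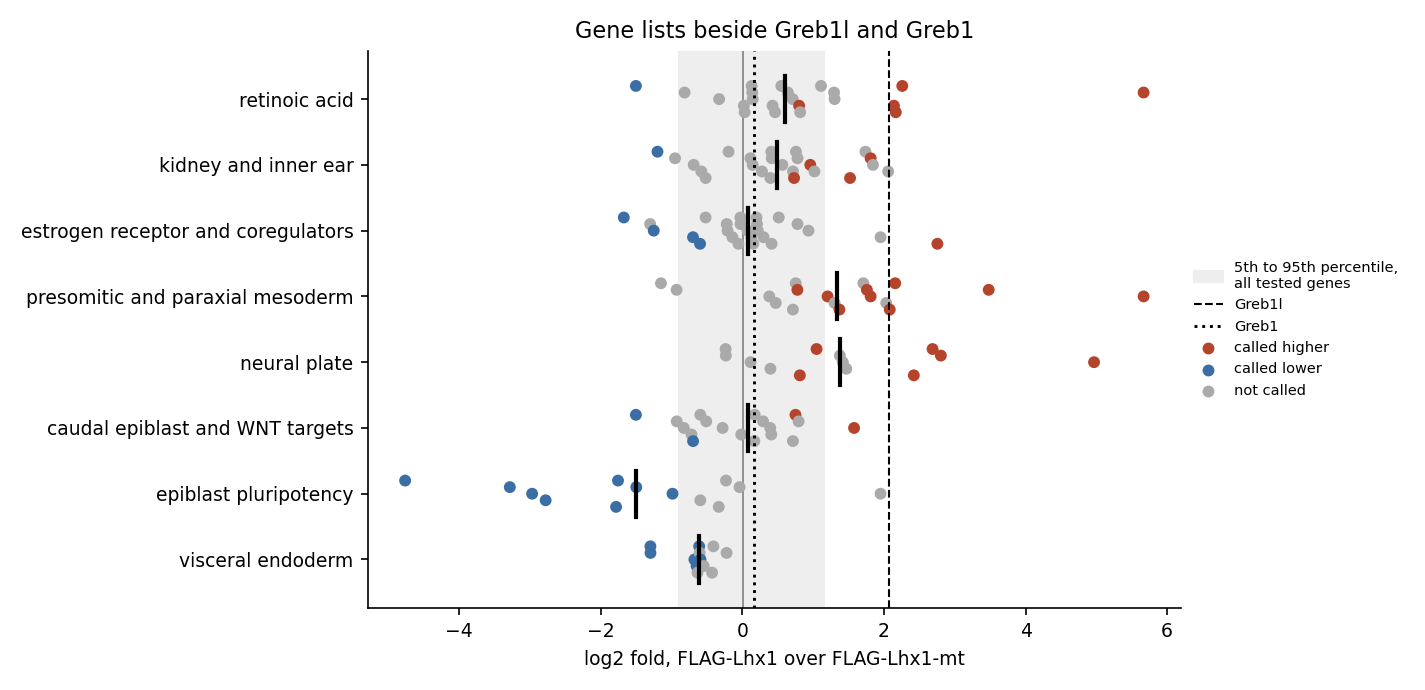
Log2 fold of FLAG-Lhx1 over FLAG-Lhx1-mt for the tested genes of 8 lists (points; black bars are list medians), with Greb1l (dashed, 2.06) and Greb1 (dotted, 0.16). The grey band spans -0.89 to 1.15, the 5th to 95th percentile of all tested genes; the medians of retinoic acid (0.60), presomitic mesoderm (1.34) and neural plate (1.38) genes lie to the right of 0 and those of epiblast (-1.5) and visceral endoderm (-0.61) genes to the left.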

How the data were processed

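The deposited files hold whole-number read counts per Ensembl gene for 4 single embryos, not normalized, per the file headers. The submitters' processing notes name STAR, featureCounts, Subread, GRCm38 and mm10. Their versions, the annotation and the strand setting were not given in the sources used here. Per the labels, cDNA was pre-amplified by PCR and no molecular identifiers are mentioned, so copies of a molecule may be counted as separate reads. Symbols, lengths and positions came from GENCODE vM21 (GRCm38), which held 37693 (96.2%) of 39179 gene identifiers, and promoter windows from RefSeq (GRCm38.p6).

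Genes were filtered with filterByExpr (minimum count 10, minimum total 15), scaled by TMM and compared with edgeR 4.0.16 (R 4.3.3), quasi-likelihood F test, group only, Benjamini-Hochberg adjusted over 15822 genes; calls are at an adjusted p under 0.05. A positive log2 fold means higher in FLAG-Lhx1; its SE was obtained by dividing it by the root of its F statistic. With 2 residual degrees of freedom, gene variances were mostly borrowed (prior degrees of freedom 13.4). With 2 embryos per group the smallest exact permutation p of a single gene could not pass the threshold, so calls rest on this model. The labels do not say whether embryos shared a litter, so whether p-values cover a spread between litters is unknown. They rest on the spread between these embryos, pooled in large part over genes. Chi-square per degree of freedom between replicates was 25.5 and 17.3, so no library was a copy of its replicate. Pairs between the groups were not checked in this way.

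The members, the 12 gene lists and the tests were chosen with earlier results of these data known. The lists share members (Aldh1a2, Foxc1 and Cyp26a1 among those named), and Oga, under that symbol, was not matched. Genes were named by rule: both members, the 5 nearest protein-coding genes on each side, up to 3 called genes of each list by p (the smallest p where none was called), the 6 most alike genes (prior count 2), Lhx1 and the receptors of estrogen and retinoic acid. Eya1, Sall1, Pax3, Pax2, Gdnf, Ogt, T, Hba-a1, Prl8a2 and Gm10800 were added after their values were seen. Pcdh19, Rspo3, Dll1, Dll3, Tcf15, Dcn, Pgr, Igfbp1, Cd68 and Ptprc were added likewise. Some genes are not reported here. Alternatives were upper-quartile and DESeq2 scaling, DESeq2 1.42.0, limma 3.58.1 (voom), no count filter, a replicate block, loess offsets for GC content and length, and leaving out each embryo.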

Additional observations from a re-analysis of the deposited data

How the results depend on the processing

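The log2 fold of Greb1l was 1.90 to 2.12 under the alternatives that kept all 4 embryos, and 1.78 to 2.37 with 1 embryo left out, the highest without FLAG-Lhx1-mt replicate 1. That of Greb1 was 0.10 to 0.21 and, with 1 embryo left out, 0.08 to 0.22. The log2 ratio of Greb1l to Greb1 differed between the groups by 1.70 to 2.16 with 1 embryo left out. Another length shifts this ratio equally in every embryo, so the difference of 1.93 could not change. With coding lengths the log2 ratio was 1.13 and 1.37 in the FLAG-Lhx1 embryos against -0.45 and -0.90 in FLAG-Lhx1-mt. With the longest transcripts it kept the same signs. Leaving out 1 embryo gave 521 to 1648 called genes, and the GC and length offsets gave 597; 296 genes kept a call and its direction in each of the 4 fits without an embryo. Where a fit keeps 1 embryo in a group, that embryo is assumed to vary like the other group. Over 197 genes and 11 alternatives, 49 of 2139 values lost a call, 74 gained one and none changed sign with a call. With the replicate number as a block 1138 genes were called, 8 of the retinoic acid list were higher, and Greb1l stood at 2.09; embryos of the same number shared little (correlation of deviations 0.0156 over 15822 genes), so the numbers were not taken as pairs. Depth limits the lowest genes, such as Esr2, Pax2 and Gdnf, which were too low to test.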
